A study of Homo sapiens with 8 samples.

Results

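The miR-30 family was examined in 786O cells, a line of human clear cell renal cell carcinoma (ccRCC) that lacks working VHL, after knockdown of the circular RNA circSOD2. Its members were chosen by name: hsa-miR-30a-5p, hsa-miR-30b-5p, hsa-miR-30c-5p, hsa-miR-30d-5p and hsa-miR-30e-5p, which are the 5p arms, and hsa-miR-30a-3p, hsa-miR-30c-1-3p, hsa-miR-30c-2-3p, hsa-miR-30d-3p and hsa-miR-30e-3p, which are 3p arms. These 10 mature miRNAs were 10 of the 3112 miRNAs in the count table, of which 1482 were known and 1630 were predicted from the reads. miR-30b-3p, which was not on the list, was added only where the other arm of miR-30b-5p was needed.

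Small RNA was sequenced from 4 negative control (NC) samples and 4 circSOD2-sh samples. By the labels, a control plasmid or a circSOD2-sh plasmid, which expresses a short hairpin RNA against circSOD2, was introduced with Lipofectamine 3000 and total RNA was taken after 48 h, whereas the study's methods describe lentiviral delivery and puromycin selection for its shRNA cells. The labels did not name the hairpin used, and nothing stated whether the 4 samples of a group came from separate cultures, so the p-values measure only the spread between these samples, which may be technical. CircSOD2 itself was not analysed here, since the data hold mature miRNAs, and the knockdown was therefore not checked in these samples. The study reports lower circSOD2 by qRT-PCR in this cell line with its shRNAs, and unaffected linear SOD2 mRNA. It does not state whether those measurements were made on the sequenced samples. The comparison asks which miRNAs differ in level between the circSOD2-sh and NC samples.

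A miRNA hairpin is cut into a duplex, of which 1 strand, the guide, is kept by Argonaute and pairs with target mRNAs mainly through its seed, bases 2 to 8. In the miR-30 family the 5p strand is the usual guide, and the 5p arms share 1 seed while the 3p arms do not. The family is abundant in kidney epithelium and podocytes. miR-30a-5p is known for repression of SNAI1, a driver of epithelial-mesenchymal transition, and of the autophagy gene BECN1, while miR-30a-3p and miR-30c-2-3p are known for repression of EPAS1, the hypoxia-inducible factor that VHL-deficient kidney cancer cells depend on.

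The mature sequences, from RefSeq on GRCh38.p14, are shown because the arms of this family changed differently from one another and members that changed differently are close in sequence. A sequence was matched for 7 of the 10 members, and capitals mark the seed. The 5p sequences were:
miR-30a-5p: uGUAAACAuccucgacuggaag
miR-30c-5p: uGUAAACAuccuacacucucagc
miR-30e-5p: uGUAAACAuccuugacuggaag
The 3p sequences fell into 2 pairs by seed:
miR-30a-3p: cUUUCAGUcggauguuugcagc
miR-30e-3p: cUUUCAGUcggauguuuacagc
miR-30c-1-3p: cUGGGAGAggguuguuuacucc
miR-30c-2-3p: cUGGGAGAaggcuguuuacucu

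With positions counted from 1 at the 5′ end, miR-30a-5p and miR-30e-5p differed at 1 of 22 positions, C13U. miR-30a-5p and miR-30c-5p were the same over their first 12 bases and differed by C13A, G14C, G18C, G19U and A20C. The pair miR-30a-3p and miR-30e-3p differed by G18A, and the pair miR-30c-1-3p and miR-30c-2-3p by G9A, U12C and C22U. How reads with a mismatch were assigned was not given in the sources used here, so the split of reads between miR-30a and miR-30e is uncertain. Among known miRNAs of the count table with a RefSeq sequence outside chr8, no other shared a seed with these members. Entries on chr8 were not searched.

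The hairpins of the 7 members shown lie in introns of host genes, on the host's strand in GENCODE release 29. MIR30E (chr1:40754355-40754446) and MIR30C1 (chr1:40757284-40757372) lie on the plus strand of GRCh38 within NFYC, which encodes a subunit of the transcription factor NF-Y, with 2837 bases between them. MIR30C2 (chr6:71376960-71377031) and MIR30A (chr6:71403551-71403621) lie on the minus strand within the long non-coding gene LINC00472, with 26519 bases between them. MIR30C1 and MIR30C2 give the same miR-30c-5p and different 3p arms. Reads of miR-30c-5p therefore cannot be assigned to either hairpin, while miR-30c-1-3p and miR-30c-2-3p each belong to 1 of them.

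Total counts were between 6386872 and 9245044 per NC library and between 3743860 and 4208276 per circSOD2-sh library. Known miRNAs made up 36.2% to 41.9% of the NC counts and 95.1% to 96.5% of the circSOD2-sh counts, so scaling matters for every level below. This difference in make-up separates all NC from all circSOD2-sh libraries, so the design cannot tell it apart from the knockdown. Its part in the changes below was not tested. Levels are given as normalized CPM, CPM computed on the library size after TMM scaling (trimmed mean of M-values). With this scaling the median log2 fold change of all 895 miRNAs tested was -0.0021, and with plain library totals it was 0.96. NC replicate 4 and circSOD2-sh replicate 2 stood apart in markers of other tissues. NC replicate 4 reached 537.2 normalized CPM in the sum of 2 stromal markers, where the rest of its group held 7.08 to 8.36, and circSOD2-sh replicate 2 reached 218.9, where the rest of its group held 7.65 to 12.4. For 5 neural markers it was 5238 normalized CPM in circSOD2-sh replicate 2 against 475.8 to 493.9. In NC replicate 4, the 4 kidney tubule markers summed to 1065 normalized CPM against 375.6 to 399.4, and the 4 erythroid markers to 170.8 against 26.8 to 42.6. The part of these signals in the results was not tested. Values without both libraries are given beside the members whose call they change, and beside miR-30c-5p. For the other 5p arms the log2 fold change without both was 1.55 for miR-30b-5p and -0.066 for miR-30e-5p. For the other 3p arms it was -1.13 for miR-30c-1-3p, -0.23 for miR-30c-2-3p and -0.62 for miR-30e-3p. Without both, 5 members were called, 2 higher and 3 lower.

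All 10 members passed the filter on low counts. In the edgeR quasi-likelihood test with Benjamini-Hochberg adjustment over 895 miRNAs, 5 members were higher and 2 were lower in circSOD2-sh at an adjusted p under 0.05, and 3 were not called. Of all miRNAs tested, 65.7% were called, 33.3% higher and 32.4% lower. Of the 463 known ones, 55.5% were called, 27% higher and 28.5% lower. The count of 7 in 10 is thus near the background, and it is not a result about the family. The median log2 fold change was 0.16 over the 10 members, 0.25 over the 5p arms and -0.16 over the 3p arms, beside -0.11 over the known miRNAs tested. Only miR-30c-5p and miR-30b-5p changed by more than 1 on the log2 scale. The normalized CPM of the groups did not overlap for 6 members, against 60.3% of all miRNAs tested and 52.3% of the known ones.

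**Figure D1:**
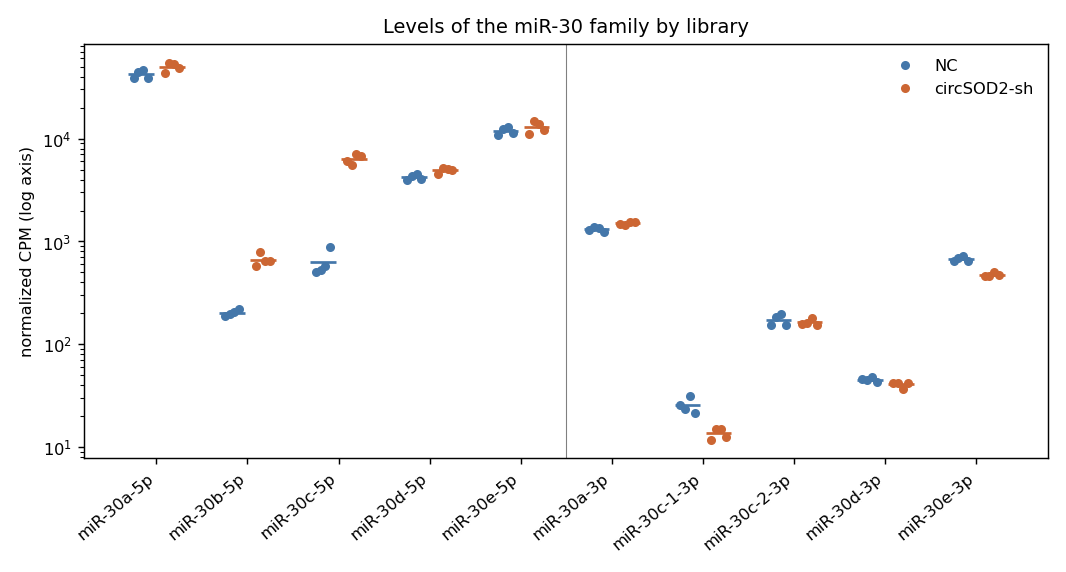
Normalized CPM of the 10 miR-30 members (log axis) in 4 NC and 4 circSOD2-sh libraries, 5p arms left of the grey line and 3p arms right of it. Each point is 1 library and each short line a group mean. The groups are far apart for miR-30b-5p and miR-30c-5p, and miR-30a-5p is the highest member in both groups.

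Of the 10 members, the 5p arm miR-30c-5p had the largest change. It was counted 3315, 3456, 3412 and 3973 times in NC replicates 1 to 4, and 35736, 31582, 35260 and 37796 times in circSOD2-sh replicates 1 to 4. The groups did not overlap. Every NC library had more counts in total than any circSOD2-sh library, but fewer of known miRNAs. Known miRNAs had 2344870 to 3573638 counts per NC library and 3604691 to 4059249 per circSOD2-sh library. On the normalized scale the NC libraries were at 508.5, 532.1, 581.8 and 892.9 CPM and the circSOD2-sh libraries at 6074, 5576, 7075 and 6723 CPM. The highest NC library was replicate 4. Mean levels were 628.8 ± 178.7 and 6362 ± 668 normalized CPM (SD, n = 4 each), a 10.1-fold rise. In the fit the log2 fold change was 3.34 (SE 0.19, edgeR adjusted p = 1.35e-07), and it was 3.51 without NC replicate 4 and 3.51 without both libraries that stood apart. It was higher with an adjusted p under 0.05 under all 27 alternatives tried, with log2 fold changes between 3.14 and 4.31. Among the 463 known miRNAs tested it was 34th in order of rise.

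miR-30b-5p, whose seed group includes the other 5p arms, also rose. It was counted 1235, 1297, 1199 and 989 times in NC and 3429, 4523, 3191 and 3629 times in circSOD2-sh. Every circSOD2-sh library lay far above every NC library. Levels were 204 ± 13.7 and 666.8 ± 92.3 normalized CPM (SD, n = 4 each), a rise of 3.27-fold and a log2 fold change of 1.71 (SE 0.11, edgeR adjusted p = 4.16e-07). The rise held under all 27 alternatives, with log2 fold changes between 1.505 and 2.67.

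miR-30a-5p was by far the most abundant member, with 255391, 285083, 269992 and 173733 counts in NC and 255888, 308127, 266457 and 271198 counts in circSOD2-sh. Its normalized levels were 39173, 43889, 46040 and 39047 CPM in NC and 43492, 54403, 53468 and 48238 CPM in circSOD2-sh, and the groups overlapped. The means were 42037 ± 3493 and 49900 ± 5061 normalized CPM (SD, n = 4 each), and the log2 fold change was 0.25 (SE 0.09, edgeR adjusted p = 0.035). This call depended on the processing. It was kept by 5 of 23 alternatives, leaving aside 4 that use library totals, upper quartiles or the deposited CPM and in which 9 of the 10 members were called higher. With 1 library left out the log2 fold change ranged from 0.06, without circSOD2-sh replicate 3, to 0.25, and only the fit without NC replicate 3 kept the call. Without both libraries that stood apart the log2 fold change was 0.06 (adjusted p = 0.51).

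miR-30d-5p and miR-30e-5p, the other abundant 5p arms, moved as little. miR-30d-5p spanned 3995 to 4525 normalized CPM among the NC libraries and 4488 to 5139 among the circSOD2-sh libraries, overlapping slightly, with a log2 fold change of 0.22 (SE 0.07, edgeR adjusted p = 0.023). That call was kept by 6 of the same 23 alternatives. The log2 fold change ranged from 0.05, without circSOD2-sh replicate 3, to 0.20 with 1 library left out, and it was 0.07 (adjusted p = 0.43) without both libraries that stood apart. As a share of known miRNA counts miR-30d-5p was lower in circSOD2-sh, at 0.699% to 0.734% against 0.765% to 0.792% in NC. miR-30e-5p spanned 10828 to 12822 normalized CPM among the NC libraries and 11063 to 14774 among the circSOD2-sh libraries. Its log2 fold change of 0.13 was not called (95% confidence interval -0.09 to 0.35, edgeR adjusted p = 0.28). As a share of known miRNA counts miR-30e-5p was also lower in circSOD2-sh, at 1.72% to 2.06% against 2.11% to 2.24% in NC.

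Every 3p arm was at a lower level than its own 5p arm in both groups, and 2 of the 5 were called lower with TMM scaling, where 32.4% of all miRNAs tested were, and none with library totals, where 17.7% were. miR-30e-3p had 4223, 4517, 4239 and 2866 counts in NC, and the circSOD2-sh libraries had 2696, 2641, 2546 and 2675. After TMM scaling, the NC libraries lay between 644.1 and 722.9 normalized CPM and the circSOD2-sh libraries between 458.2 and 510.9, with no overlap. The log2 fold change was -0.50 (SE 0.08, edgeR adjusted p = 0.000253) with TMM and 0.46 with library totals, so its direction depends on the scaling. Both values lie below the median of all miRNAs tested under the same scaling.

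miR-30c-1-3p, the 3p arm of the hairpin next to MIR30E, had few reads: 169, 153, 184 and 95 counts in NC and 70, 85, 76 and 71 in circSOD2-sh. Its level was 25.6 ± 4.31 normalized CPM in NC and 13.7 ± 1.68 in circSOD2-sh (SD, n = 4 each). This is a log2 fold change of -0.90 (SE 0.17, edgeR adjusted p = 0.000964) with TMM and 0.06 with library totals (adjusted p = 0.75). On the normalized scale all NC libraries were above all circSOD2-sh libraries. miR-30b-3p, the other arm of miR-30b-5p, had 82, 88, 83 and 56 counts in NC and 47, 53, 36 and 54 in circSOD2-sh. This gave a log2 fold change of -0.63 (SE 0.15, edgeR adjusted p = 0.00417) with TMM, and 0.34 with library totals (adjusted p = 0.076).

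For miR-30c-2-3p the groups overlapped with TMM scaling. It had 1017, 1203, 1146 and 693 counts in NC and 923, 925, 908 and 868 in circSOD2-sh, or 173.1 ± 20.3 and 164.2 ± 12.6 normalized CPM (SD, n = 4 each). The log2 fold change was -0.08 (95% confidence interval -0.32 to 0.17, edgeR adjusted p = 0.56), and it was 0.89 with library totals. With 1 library left out it ranged from -0.29, without circSOD2-sh replicate 3, to -0.06, and it was not called in any of these fits. miR-30d-3p was at 45.6 ± 2.26 and 40.9 ± 2.40 normalized CPM, with a log2 fold change of -0.16 (95% confidence interval -0.39 to 0.08, edgeR adjusted p = 0.22) that became 0.81 with library totals. It was called lower in 2 settings, at -0.30 (adjusted p = 0.049) without both libraries that stood apart and at -0.29 (adjusted p = 0.034) with circSOD2-sh replicate 2 as TMM reference, and with 1 library left out it ranged from -0.29 to -0.18 and was not called, lying between -0.29 and -0.27 without any 1 of the circSOD2-sh libraries. miR-30a-3p was the only 3p arm that was higher with TMM, from 1309 ± 63.2 to 1502 ± 47.6 normalized CPM (log2 fold change 0.20, SE 0.07, edgeR adjusted p = 0.0245). The groups did not overlap for miR-30a-3p, but the call was kept by 5 of the same 23 alternatives and by none of the 8 fits that left out 1 library. The log2 fold change was 0.03 to 0.16 in those 8 fits, lowest without circSOD2-sh replicate 3, and 0.08 (adjusted p = 0.34) without both libraries that stood apart. As a share of known miRNA counts miR-30a-3p was lower in circSOD2-sh, at 0.203% to 0.230% against 0.232% to 0.254% in NC.

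**Figure D2:**
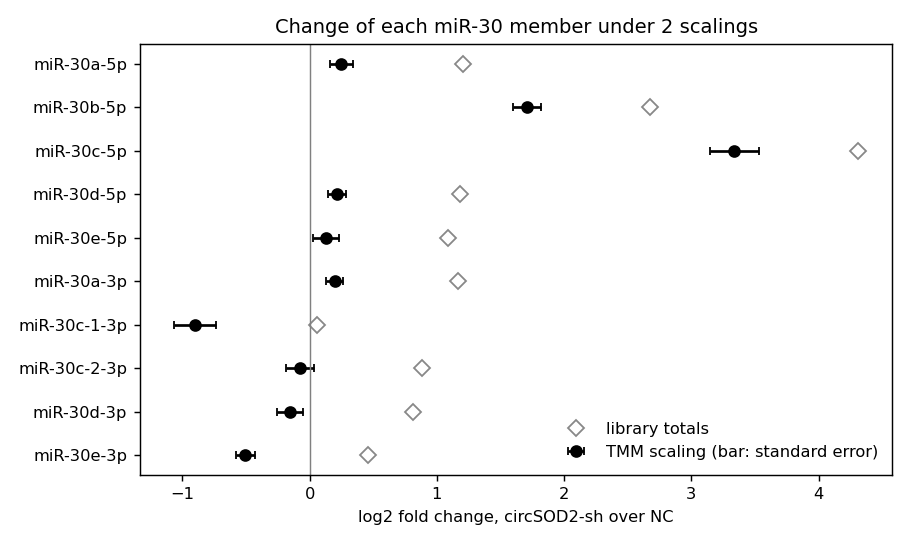
Log2 fold change of each miR-30 member in circSOD2-sh over NC (x axis). Filled points are edgeR values with TMM scaling and their standard errors, and open diamonds are values with library totals. With library totals the values lie higher, as does the median of all miRNAs tested (0.96), and the 4 members below 0 with TMM come out above 0.

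A read covers a whole mature miRNA, and the 7 members with a sequence have 22 or 23 bases, so levels of members were compared without scaling for length. The libraries were amplified, so reads are not counts of molecules, and how well each sequence was captured and amplified was not tested. In NC the order of mean levels was miR-30a-5p, miR-30e-5p, miR-30d-5p, miR-30a-3p, miR-30e-3p, miR-30c-5p, miR-30b-5p, miR-30c-2-3p, miR-30d-3p and miR-30c-1-3p. In that order, miR-30e-3p and miR-30c-5p, and also miR-30b-5p and miR-30c-2-3p, had overlapping ranges. In circSOD2-sh miR-30c-5p was 3rd in place of 6th, above miR-30d-5p and miR-30a-3p, and miR-30b-5p was 6th, above miR-30e-3p.

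Shares within the family do not depend on how libraries are scaled. In NC the 10 members together held 10.9% to 11.6% of all known miRNA counts, and in circSOD2-sh 10.6% to 11.6%, so the groups overlapped. The 5p arms made up 96.2% to 96.5% of the family in NC, and 96.8% to 97.4% of it in circSOD2-sh. Within the summed 5p counts, which number 247057 to 457010 per library, the share of miR-30c-5p was 0.930%, 0.869%, 0.907% and 1.61% in NC replicates 1 to 4. In circSOD2-sh replicates 1 to 4 it was 9.24%, 6.91%, 8.84% and 9.26%. NC replicate 4 was the highest of its group, with a 95% Clopper-Pearson interval of 1.56% to 1.66%, and circSOD2-sh replicate 2 the lowest of its group, with an interval of 6.84% to 6.98%. Binomial intervals of the same kind reached at most 0.18 percentage points to either side for any share in these paragraphs, and they cover counting error only.

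The mean share of miR-30c-5p was 1.08% ± 0.354 in NC and 8.56% ± 1.119 in circSOD2-sh (SD, n = 4 each), and that of miR-30b-5p was 0.348% ± 0.0369 and 0.891% ± 0.0775. The shares of the other 5p arms were lower in circSOD2-sh. For miR-30a-5p the share was 71.4% ± 0.688 in NC and 66.7% ± 0.536 in circSOD2-sh, for miR-30e-5p 20.1% ± 0.256 and 17.3% ± 0.732, and for miR-30d-5p 7.16% ± 0.145 and 6.57% ± 0.256. For each of the 5 arms the groups did not overlap, and the exact two-sided permutation test gave p = 0.0286, the smallest value possible with 4 against 4 libraries. Shares of 1 sum are not independent, since a larger share of miR-30c-5p leaves less for the rest.

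**Figure D3:**
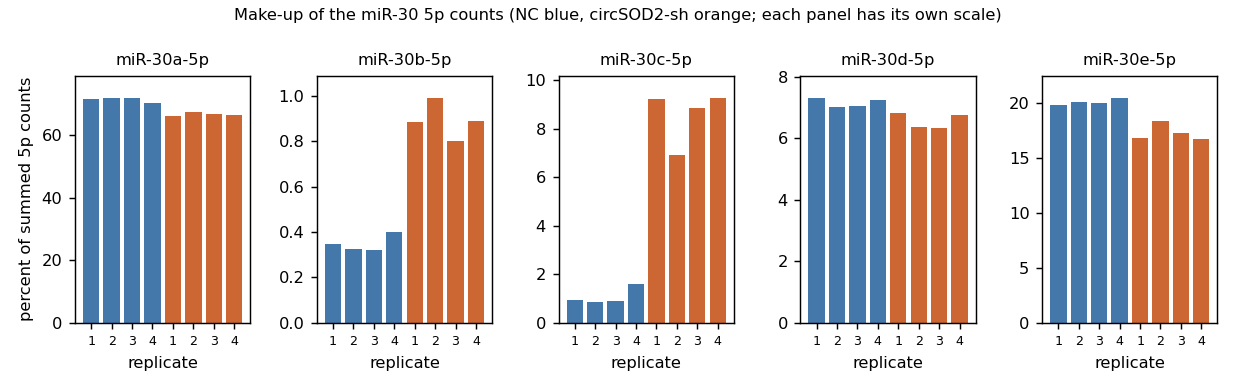
Percent of the summed miR-30 5p counts held by each 5p arm (y axis, from 0, with its own scale in each panel) in every NC (blue) and circSOD2-sh (orange) replicate. The share of miR-30c-5p is 0.869% to 1.61% in NC and 6.91% to 9.26% in circSOD2-sh, and the bars of miR-30a-5p, miR-30d-5p and miR-30e-5p differ by less between the groups.

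Ratios between 5p arms gave the same picture for single libraries. In NC there were 77.0, 82.5, 79.1 and 43.7 reads of miR-30a-5p for each read of miR-30c-5p, and in circSOD2-sh 7.16, 9.76, 7.56 and 7.18. By contrast, miR-30a-5p over miR-30d-5p spanned 9.68 to 10.2 among NC libraries and 9.69 to 10.6 among circSOD2-sh libraries. miR-30e-5p over miR-30a-5p spanned 0.276 to 0.290 among NC libraries and 0.251 to 0.272 among circSOD2-sh libraries, a small difference without overlap. Thus miR-30a-5p, miR-30d-5p and miR-30e-5p kept nearly the same proportions to one another, while miR-30c-5p did not. Nor did miR-30b-5p, whose mean share of the 5p counts was 0.348% in NC and 0.891% in circSOD2-sh.

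The ratio of the 5p arm to the 3p arm of a hairpin within a library is likewise free of scaling. It was compared with limma on the log2 scale for 139 pairs of arms, 6 of them of this family, with miR-30c-5p set against each of its 3p arms. The ratio shifted toward the 5p arm in 5 of the 6 pairs at an adjusted p under 0.05, and none shifted toward the 3p arm. Of all 139 pairs 61.2% were called, 29.5% toward 5p and 31.7% toward 3p. Because miR-30c-5p enters 2 pairs, these 5 calls come from 4 different 5p arms.

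The largest shifts were those of miR-30c-5p. MIR30C1 and MIR30C2 both give this arm, so each ratio sets reads pooled over these hairpins against the 3p arm of a single hairpin. Against miR-30c-1-3p the log2 ratio was 4.27, 4.47, 4.19 and 5.35 in NC and 8.94, 8.49, 8.81 and 9.0 in circSOD2-sh, a change of 4.24 (SE 0.26, limma adjusted p = 4.52e-07). The geometric mean ratio went from 23.8 to 448.7, and the shift was 3rd of 139 toward the 5p arm. Against miR-30c-2-3p the log2 ratio was 1.70, 1.52, 1.57 and 2.52 in NC and 5.27, 5.09, 5.28 and 5.44 in circSOD2-sh, a change of 3.44 (SE 0.22, limma adjusted p = 6.54e-07). That shift was 7th of 139, and the geometric mean ratio went from 3.55 to 38.6. NC replicate 4 had the highest ratio of its group in both pairs and was still well below every circSOD2-sh library.

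miR-30b-5p over miR-30b-3p changed by 2.31 on the log2 scale (SE 0.14, limma adjusted p = 3.90e-07), from a ratio of 14.9 to 73.7. This was 11th of 139 toward the 5p arm, while 13 pairs shifted by more than 2 in that direction and 24 in the other. The shift of miR-30e-5p over miR-30e-3p was smaller, 0.63 (SE 0.12, limma adjusted p = 0.00152), from a ratio of 17.4 to 26.9. That of miR-30d-5p over miR-30d-3p was 0.37 (SE 0.12, limma adjusted p = 0.0226), from 91.4 to 118.3. The call for miR-30d was lost without NC replicate 1 (0.34, adjusted p = 0.07) or without circSOD2-sh replicate 3 (0.31, adjusted p = 0.059).

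miR-30a was the exception. Its log2 ratio was 4.91, 5.00, 5.10 and 5.00 in NC and 4.88, 5.23, 5.11 and 4.98 in circSOD2-sh, and the groups overlapped throughout. The change was 0.05 (SE 0.12, limma adjusted p = 0.77). MIR30A and MIR30C2, which lie in the same host gene, had 3p arms with log2 fold changes of 0.20 and -0.08 with TMM scaling, and of 1.17 and 0.89 with library totals.

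**Figure D4:**
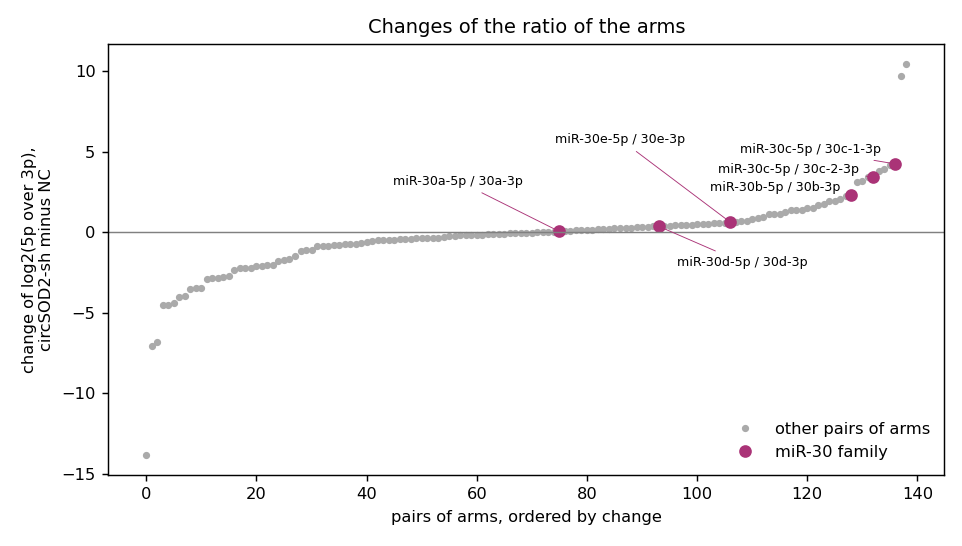
Change of log2(5p over 3p) in circSOD2-sh minus NC (y axis) for 139 pairs of arms in order of change (x axis), with the 6 pairs of the miR-30 family in purple. Both pairs of miR-30c-5p and that of miR-30b-5p lie among the largest shifts toward the 5p arm, and miR-30a lies near 0.

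Base content was examined after the values were seen. miR-30c-5p has 8 cytosines and 2 guanines, a difference of 6, while miR-30a-5p has a difference of 0 and miR-30e-5p of -1. The 3p arms were at -1 for miR-30a-3p, 0 for miR-30e-3p, -4 for miR-30c-1-3p and -3 for miR-30c-2-3p. Sequence entries on chr8 were left out here too, and miR-30b-5p, miR-30d-5p and miR-30d-3p had no matched sequence. Across the 403 known miRNAs tested with a matched sequence, the log2 fold change and cytosines minus guanines had a Spearman rho of 0.39 and a Pearson r of 0.37. These points share the same 8 libraries and are not independent replicates. In the 24 miRNAs with a difference of 6 or higher, to which miR-30c-5p belongs, the median log2 fold change was 1.32 and 75% were called higher. In the 141 with a difference of -1 to 1 the median was -0.19 and 21.3% were called higher. The part of base content in the rise of miR-30c-5p was not tested.

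**Figure D5:**
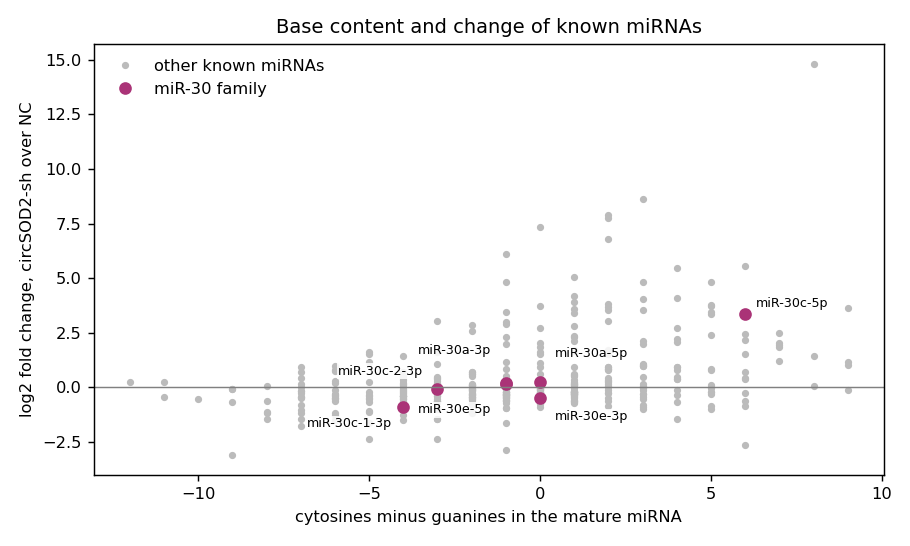
Log2 fold change in circSOD2-sh over NC with TMM scaling (y axis) against cytosines minus guanines in the mature sequence (x axis) for 403 known miRNAs, with 7 miR-30 members in purple. miR-30c-5p has the highest difference of the 7 members and the largest log2 fold change, in a range of base content where most known miRNAs were higher.

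The known miRNAs with the level pattern most like that of miR-30a-5p were found by the root mean square distance of log2 normalized CPM, each centred on its own mean over the 8 libraries, among 127 with a mean of at least 100 normalized CPM. Outside the family they were miR-186-5p (0.0555), miR-191-5p (0.0878), miR-196b-5p (0.0904), miR-146b-5p (0.0924) and miR-361-5p (0.105). Within the family miR-30d-5p was at 0.049, closer than any of them, miR-30e-5p was at 0.0702 and miR-30a-3p at 0.106, while miR-30c-5p was at 1.59.

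Other miRNAs known for kidney tubule or epithelial identity were set beside the family. Of 11 listed, 9 passed the filter on low counts. With TMM scaling 1 was higher, 5 were lower and 3 were not called, with a median log2 fold change of -0.42, beside 27% higher, 28.5% lower and a median of -0.11 among all known miRNAs tested. With library totals 5 were higher and 1 was lower, with a median of 0.55. Among all miRNAs tested, predicted ones included, 68.5% were higher and 17.7% lower, and the median among the known ones was 0.85. miR-205-5p, an epithelial miRNA that restrains ZEB1 and ZEB2, was higher under both scalings. It had 12, 14, 20 and 41 counts in NC and 108, 109, 88 and 107 in circSOD2-sh, a log2 fold change of 2.21 (SE 0.43, edgeR adjusted p = 0.00134). The NC library nearest to the circSOD2-sh libraries was replicate 4, and without it the log2 fold change was 2.86. The listed miR-204-5p, which did not pass, had 1, 0, 0 and 4 counts in NC and 9, 164, 7 and 7 in circSOD2-sh. Without circSOD2-sh replicate 2 it passed and was called higher, at a log2 fold change of 2.47 (edgeR adjusted p = 0.0151). The value was 4.17 (edgeR adjusted p = 0.000265) without both libraries that stood apart.

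The miR-200 family also acts on ZEB1 and ZEB2. Its member miR-141-3p had 37, 55, 47 and 113 counts in NC and 6, 11, 14 and 19 in circSOD2-sh, and it fell under both scalings, with a log2 fold change of -2.35 with TMM (edgeR adjusted p = 0.00348), -1.38 with library totals and -1.73 without NC replicate 4. miR-200c-3p was at -1.50 with TMM (adjusted p = 0.0148), -0.53 with library totals (adjusted p = 0.26) and -0.91 without NC replicate 4. For the more abundant miR-200b-3p and miR-200a-3p the log2 fold changes were -0.25 (adjusted p = 0.0126) and -0.30 (adjusted p = 0.0277) with TMM and 0.72 and 0.67 with library totals, below the median of the known miRNAs tested under either scaling (-0.11 and 0.85). miR-192-5p, a miRNA of the kidney tubule, had 2182, 2322, 2116 and 4238 counts in NC and 1581, 1596, 1374 and 1527 in circSOD2-sh. The change was -0.87 on the log2 scale with TMM (edgeR adjusted p = 0.035), -0.40 without NC replicate 4 and 0.11 with library totals (adjusted p = 0.73).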

How the data were processed

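Small RNA libraries of 4 NC and 4 circSOD2-sh samples of 786O cells, harvested after 48 h by the labels, were used. The authors deposited raw counts per mature miRNA, without normalization, and CPM that they computed from them. A deposited table of the authors' own comparison, with fold changes and p-values, was not used. The submitters' processing notes name FastQC 0.11.2, Trimmomatic 0.36, Bowtie 1.1.1 and GRCh38. Mismatch settings, the treatment of reads that match several miRNAs and the miRNA annotation are not given in the sources used here.

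Counts were fitted on the whole table with edgeR 4.0.16 in R 4.3.3 (filterByExpr with a minimum count of 10, TMM, quasi-likelihood test, prior count of 0.125, Benjamini-Hochberg over 895 miRNAs). Known miRNAs are those not named as predicted by the authors. Standard errors were derived from the F statistic. Arm ratios were fitted with limma 3.58.1 after 0.5 normalized CPM was added to each arm. Shares were compared with exact permutation tests in scipy 1.17.1. Fits were tested on simulated data. Alternatives were DESeq2 1.42.0, other scalings, TMM references and filters, limma on the log2 of the deposited CPM plus 1 or 0.1, which understates changes of low values, known miRNAs only, a replicate block and libraries left out. No 2 libraries of a group agreed within sampling noise (chi-square per degree of freedom at least 11.4). Members, lists and alternatives were chosen with earlier results of these data known. Named were all members, miR-30b-3p, known miRNAs sharing a seed, and the 5 known miRNAs most like miR-30a-5p. Marker lists covered neural, leukocyte, erythroid, muscle, stromal, liver and kidney tubule miRNAs.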

Additional observations from a re-analysis of the deposited data

Results flagged for a closer look

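In 5 of 44 groups of 4 libraries, 1 library lay farther from the others than Dixon's test allows at the 95% level, where chance gives about 2.2. NC replicate 4 was apart in 2 shares of the 5p counts: miR-30a-5p held 70.3% there, where the remaining NC libraries held 71.6% to 71.7%, and miR-30c-5p held 1.61% against 0.869% to 0.930%. miR-30d-3p was at 37.3 normalized CPM in circSOD2-sh replicate 3 against 42.0 to 42.3. NC replicate 1 was low in 2 log2 arm ratios, 6.42 against 6.54 to 6.56 for miR-30d-5p over miR-30d-3p and 4.06 against 4.14 to 4.15 for miR-30e-5p over miR-30e-3p. The causes were not tested.

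Among the remaining marker lists, the 4 leukocyte miRNAs summed to 17.1 normalized CPM in NC replicate 4 and 14.7 in circSOD2-sh replicate 2, against 1.19 to 3.21 in the other libraries. The 4 muscle miRNAs summed to 47.4 in NC replicate 4 against 9.38 to 30.4, and miR-122-5p of liver was at most 5.83 normalized CPM in any library.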

How the results depend on the processing

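miR-30b-5p and miR-30c-5p kept their rise and their call under all 27 alternatives, and the arm ratios of miR-30b, miR-30c and miR-30e under all 14 of theirs. The number of members called moved from 7 to 4, 2 of them higher and 2 lower, with DESeq2, with RLE size factors, with TMM references NC replicates 1 to 4 or circSOD2-sh replicate 3, and with no low-count filter, and it was 4 to 6 when 1 library was left out, 4 without any of the 7 libraries other than NC replicate 3. The 3 calls concerned are the small rises of miR-30a-5p, miR-30a-3p and miR-30d-5p with TMM scaling. As a share of known miRNA counts, miR-30a-3p, miR-30d-5p and the uncalled miR-30e-5p were lower in circSOD2-sh without overlap, so their direction depends on the scale. The share of miR-30a-5p was 7.41% to 8.05% in NC and 6.78% to 7.59% in circSOD2-sh, with overlap. With library totals, upper-quartile normalization or limma on the deposited CPM, 9 members were higher and 0 lower. With library totals the median of all miRNAs tested was 0.96, and limma on CPM also differs in the test and the added constant.

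Library totals turned miR-30c-1-3p to 0.059, miR-30c-2-3p to 0.89, miR-30d-3p to 0.81, miR-30e-3p to 0.46 and miR-30b-3p to 0.34. Upper-quartile normalization gave 0.76 for miR-30c-2-3p, 0.68 for miR-30d-3p, 0.34 for miR-30e-3p and 0.21 for miR-30b-3p, and limma on CPM plus 1 gave 0.75, 0.65, 0.32 and 0.17, with plus 0.1 in place of 1 giving 0.75, 0.67, 0.32 and 0.18. miR-30e-5p went to -0.066 without both libraries that stood apart (NC replicate 4 and circSOD2-sh replicate 2) and ranged from -0.06 to 0.12 with 1 library left out. The miR-30a arm ratio was -0.016 without both and -0.01 to 0.10 with 1 left out.

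Over all miRNAs, 588 were called, 246 when known miRNAs only were fitted, 361 with a mean of at least 50 counts, and 537 to 661 with 1 library left out. Library totals moved the split to 613 higher and 158 lower.

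Differences in share of the 5p counts (percentage points) without both libraries were -5.22 for miR-30a-5p, 0.528 for miR-30b-5p, 8.21 for miR-30c-5p, -0.49 for miR-30d-5p and -3.03 for miR-30e-5p, where the smallest exact p possible is 0.1. With 1 library left out they were -4.98 to -4.47, 0.511 to 0.574, 7.25 to 8.04, -0.678 to -0.511 and -3.15 to -2.61, where it is 0.0571. These p-values could not pass 0.05.

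Replicate numbers are shared between the groups, and deviations of same-numbered libraries correlated at 0.26, -0.099, 0.096 and -0.17. Those of NC replicate 4 and circSOD2-sh replicate 2 correlated at 0.264. With so few values, and with libraries that stood apart, these correlations cannot decide whether the samples were paired. With the replicate block 7 members and 574 of all miRNAs were called, the miR-30d arm ratio was at an adjusted p of 0.052, and the paired differences in share were -4.64, 0.544, 7.48, -0.591 and -2.80, with too few pairs for an exact p under 0.05. Depth limits miR-30c-1-3p, miR-30b-3p and miR-30d-3p most, with 36 to 302 counts per library.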
